A study of Mus musculus with 16 samples.

Results

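The myeloid and macrophage transcripts are 10 genes, Lyz2, C1qa, C1qb, C1qc, Tyrobp, Fcer1g, Ptprc, Csf1r, Aif1 and Cx3cr1, of the 24421 genes in each deposited table, and all 10 were found there. They were chosen by their measured values at embryonic day 9.5 (E9.5), where they stood higher in mutant than in wild-type cells, so the E9.5 values are given as a description, with no test. The libraries came from C57BL/6 mice, either wild type (WT) or lacking the miR-302 microRNA cluster (KO). They were made from Sox10-positive cells sorted at E9.5 (2 WT and 2 KO), from Wnt1-Cre-positive cells sorted at E8.5 (3 WT and 4 KO), and from whole embryos at E7.5 (2 WT and 2 KO). Sox10 and Wnt1-Cre both mark the neural crest, a migratory embryonic population. An eighth E8.5 library, KO4_5s, was not analysed here. Each library's description carries a code whose meaning the labels do not give. At E9.5 both WT codes begin with 209 and both KO codes with 171, so there a difference between codes cannot be told apart from the genotype. The labels do not state whether replicates were separate animals, so a p-value measures only the spread between these samples, which may be technical.

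Macrophages are phagocytes, and in the embryo the first of them come from the yolk sac and later settle in every organ, including the brain as microglia. Receptors at their surface, such as the colony-stimulating factor 1 receptor encoded by Csf1r, keep them alive, while small transmembrane adaptors (Tyrobp, Fcer1g) pass signals from activating receptors to kinases inside the cell. They also secrete lysozyme, which breaks bacterial cell walls, and C1q, the recognition protein of the classical complement pathway. The neural crest does not give rise to blood cells. In bulk RNA, fewer cells of a type and less RNA per cell cannot be told apart.

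The microRNA silences messages that pair with its seed, bases 2 to 8 of the mature strand, and the mature strands are shown because their shared seed (capitals) is what was searched for in the 10 genes. They are the reference sequences in RefSeq (GRCm38.p6). Only these 2 strands of the cluster were at hand, and any other seed of the cluster was not searched for.

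miR-302b-3p: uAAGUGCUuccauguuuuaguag

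miR-302d-3p: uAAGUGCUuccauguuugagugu

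The 7 bases complementary to the seed, AGCACTT, occur in the longest annotated 3′UTR of 2 of the 10 genes, C1qa and Csf1r. Over all genes with an annotated 3′UTR, 15.1% hold them (2948 of 19514). The C1qa match is shown with its neighbouring bases, the match in capitals.

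C1qa 3′UTR: tttctttaAGCACTTtctggaat

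A match of letters is a description and not a site shown to work, and whether matches go with the KO levels was not tested.

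In Sox10-positive cells at E9.5 all 10 transcripts stood above WT in both KO libraries, and 9 of them had 0 reads in both WT libraries. Across all 17137 genes with a read at this stage, 30.7% stood above WT in both KO libraries and 36.6% below. Only 1.76% had 0 reads in WT and at least 1 read in each KO library. Because E9.5 chose the genes, nothing is read from these shares. The levels were low: summed over the 10 genes, the libraries held 0.411 (WT1), 0.673 (WT2), 18.4 (KO1) and 29.4 (KO2) RPM, the reads of a gene per 1000000 gene reads of its library. The median difference over the 10 genes was 4.30 on the log2(value + 1) scale, on which the median of all 12000 genes tested was -0.14. Values are the authors' normalised counts unless said otherwise, and the plot of values by library shows them for all stages.

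**Figure D1:**
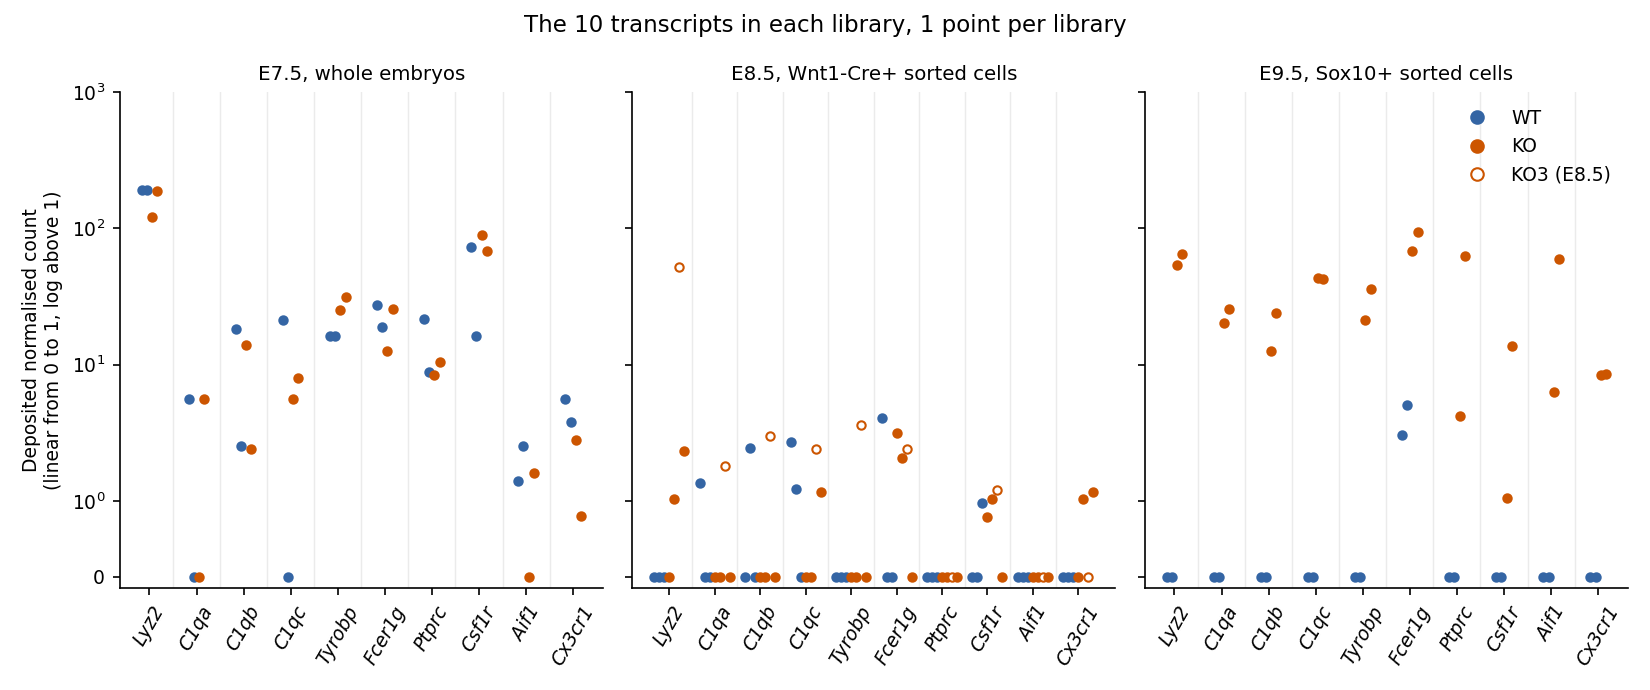
Deposited normalised count of each of the 10 genes (vertical axis, linear from 0 to 1 and logarithmic above) in every library of the 3 stages, 1 point per library, WT in blue and KO in orange, with E8.5 KO3 as an open circle. At E9.5 the WT points lie at 0 for 9 genes and both KO points lie above them for all 10. At E8.5 Lyz2 in KO3, at 51.7, stands alone, and at E7.5 the genotypes overlap for 7 of the 10 genes.

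Lyz2, the lysozyme of macrophages and neutrophils, had 0 reads in E9.5 WT1 and WT2, 51 in KO1 and 38 in KO2. Its normalised counts were 53.8 and 64.6 in the KO libraries, a mean of 59.2 ± 7.61 (SD, n = 2). Both KO libraries were high and close to each other. Against 3 reads over the whole WT group, taken as the limit for a count of 0 and equal to 0.135 RPM, the measured KO level of 4.25 RPM was 31.4-fold higher. This and the later folds against 3 WT reads leave out the counting error of the KO reads, so they are not 95% bounds. Lyz2 lies on chromosome 10, 117277331 to 117282321, minus strand (GRCm38), and has a near-identical neighbour, Lyz1, with which reads may have been shared or lost. Lyz1 had 0, 0, 4 and 4 reads in the same libraries.

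C1q is built from 3 chains, A, B and C, whose genes lie side by side on the minus strand of chromosome 4 (C1qa 136895917 to 136898803, C1qb 136880129 to 136886187, C1qc 136889804 to 136893065). C1qa had 0 reads in both WT libraries, 19 in KO1 and 15 in KO2, with normalised counts of 20.1 and 25.5 in KO (22.8 ± 3.85, SD, n = 2). C1qb had 0, 0, 12 and 14 reads, and 12.7 and 23.8 as normalised counts. C1qc had 0, 0, 41 and 25 reads, and its KO values of 43.3 and 42.5 were the closest pair of the 3 chains (42.9 ± 0.550). All 3 chains were therefore read in both KO libraries and in neither WT library. Against 3 WT reads, the measured KO level in RPM was 12-fold higher for C1qa, 9.17-fold for C1qb and 23.3-fold for C1qc.

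Tyrobp and Fcer1g encode adaptors that carry an activation motif and couple to receptors on macrophages, mast cells and natural killer cells. Tyrobp (chromosome 7, 30413760 to 30417585, plus strand) had 0 reads in each WT library, 20 in KO1 and 21 in KO2. These are 21.1 and 35.7 as normalised counts, and 14.5-fold above 3 WT reads in RPM. Fcer1g (chromosome 1, 171229572 to 171234365, minus strand) was the 1 gene of the 10 with WT reads, 3 in WT1 and 10 in WT2, against 65 in KO1 and 55 in KO2. Its normalised counts were 3.04 and 5.05 in WT and 68.6 and 93.5 in KO. The groups did not overlap, and the ratio of KO to WT in RPM was 9.76 (exact 95% interval 5.50 to 18.9, counting error only).

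The receptors and surface molecules were lower and less even. Ptprc, which encodes CD45, the phosphatase on the surface of all white blood cells (chromosome 1, 138062861 to 138175708, minus strand), had 0 reads in both WT libraries, 4 in KO1 and 37 in KO2. Its normalised counts in KO were 4.22 and 62.9. Csf1r had 0, 0, 1 and 8 reads, with 1.06 and 13.6 as normalised counts in KO. Cx3cr1, the receptor for fractalkine and a marker of microglia and monocytes (chromosome 9, 119901616 to 120069879, minus strand), had 0, 0, 8 and 5 reads, with 8.44 and 8.5 in KO. Aif1, the calcium-binding protein also called Iba1 (chromosome 17, 35170991 to 35176068, minus strand), had 0, 0, 6 and 35 reads, with 6.33 and 59.5. In 3 of these 4 genes most of the KO signal came from KO2, and Cx3cr1 was level between the KO libraries. Against 3 WT reads, the measured KO level in RPM was 14.5-fold higher for Ptprc and for Aif1, 4.58-fold for Cx3cr1 and 3.17-fold for Csf1r. The annotated span of Ptprc overlaps A130071D04Rik, that of Csf1r overlaps Hmgxb3 on the opposite strand, and that of Cx3cr1 overlaps 9 genes, and the library kit does not mark strand, so reads of such partners could not be told apart.

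The KO libraries thus differed in the make-up of the set. Scaled to depth, KO2 held 13.3 times the Ptprc reads of KO1 (exact 95% interval 4.77 to 51.3), 8.38 times the Aif1 reads (3.49 to 24.4) and 11.5 times the Csf1r reads (1.54 to 510). For the other 7 genes the ratio lay between 0.876 (C1qc) and 1.68 (C1qb), and each interval held 1. The plot of KO2 against KO1 separates these 3 genes from the rest.

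**Figure D2:**
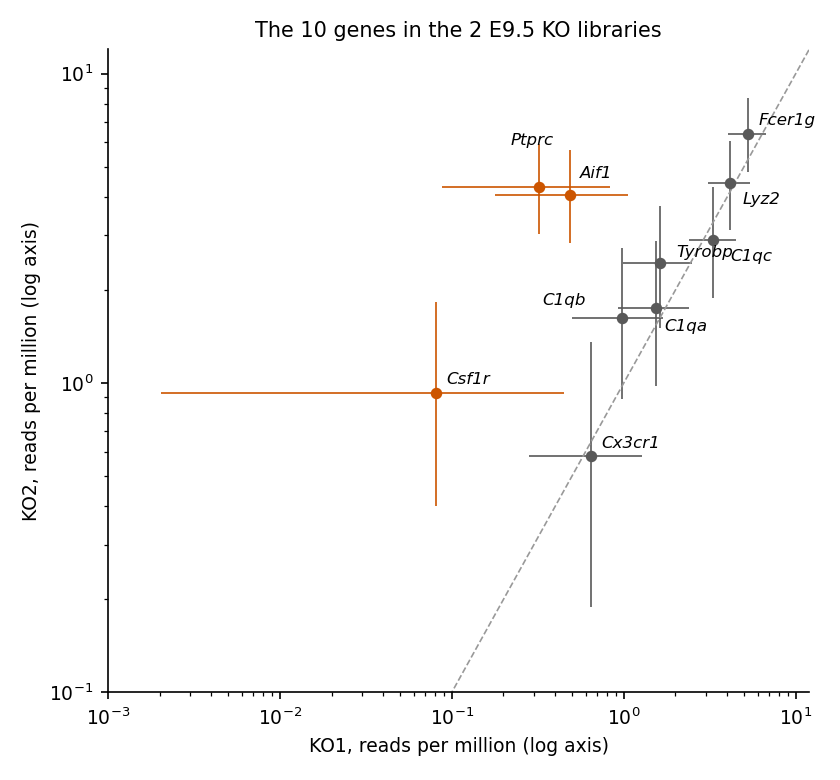
Level in RPM of each of the 10 genes in E9.5 KO1 (horizontal, log axis) and KO2 (vertical, log axis), with exact 95% Poisson intervals of the read counts as bars and the line of equal levels dashed. Ptprc, Aif1 and Csf1r (orange) lie far above the line, with KO2 to KO1 ratios of 13.3, 8.38 and 11.5, and the other 7 genes lie along it.

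Levels per transcript length allow the genes to be set in order. In RPKM (RPM per kilobase, over the longest annotated coding transcript), Fcer1g was highest in the E9.5 KO libraries, at 7.71 in KO1 and 9.36 in KO2. Lyz2 followed at 3.14 and 3.36, Tyrobp at 2.71 and 4.09, and C1qc at 2.76 and 2.42. Tyrobp overlapped both of these neighbours. C1qa stood at 1.48 and 1.68 and C1qb at 0.893 and 1.5, which overlapped. Aif1 spanned 0.555 to 4.65 and Ptprc 0.0638 to 0.848, so their places depend on the library. Csf1r (0.0172 and 0.198) and Cx3cr1 (0.144 and 0.129) were also low and overlapped each other, and Cx3cr1 lay within the span of Ptprc.

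**Figure D3:**
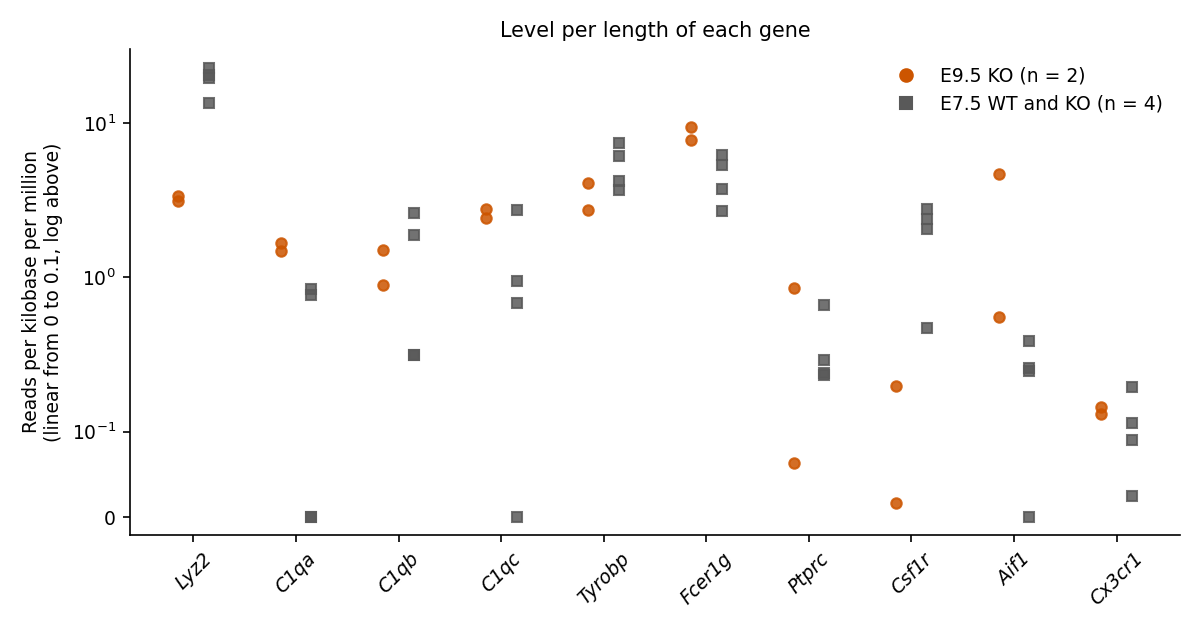
Level per length (RPKM, linear from 0 to 0.1 and logarithmic above) of each gene in the 2 E9.5 KO libraries (orange circles) and in the 4 E7.5 libraries of both genotypes (grey squares). Fcer1g led in the E9.5 KO libraries, at 7.71 and 9.36, and Lyz2 led in all 4 whole-embryo libraries, at 13.5 to 22.7.

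The authors' deposited table of genes higher in KO at E9.5 lists 3548 genes (20.7% as a share of the genes with a read) and holds 8 of the 10, all but Csf1r and Cx3cr1. The log2 fold changes in the authors' deposited table run from 4.28 for Fcer1g to 8.81 for Lyz2, with C1qc at 8.35, Ptprc at 7.99, Aif1 at 7.96, Tyrobp at 7.75, C1qa at 7.44 and C1qb at 7.11. Their table of lower genes at this stage (3282 genes, where 17137 genes had a read) holds 0 of the 10. For a gene with 0 WT reads such a value depends on how 0 was treated and is no bound.

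The label of the set was checked against other markers of the lineage. Spi1, which encodes PU.1, the transcription factor that myeloid development requires, had 0 reads in all 4 E9.5 libraries. So did Adgre1 (F4/80), Itgb2 (the shared chain of the leukocyte integrins) and Trem2, a receptor that signals through the Tyrobp adaptor. Itgam (CD11b) had 1 read in WT1 and 1 in KO2. Irf8, a factor of monocyte and macrophage fate, had 2 and 6 reads in WT and 0 in both KO libraries. These markers were picked after their values were seen, and other macrophage genes ran with the 10. In WT1, WT2, KO1 and KO2, Fcgr3 had 0, 0, 16 and 13 reads, Msr1 0, 0, 15 and 19, Ms4a6c 0, 0, 12 and 9, and Ctss 0, 0, 58 and 46. Of the 126 further genes listed below, 9 had 0 reads in WT and a read in both KO libraries, and 25 had 0 reads in all 4. Over all genes with a read, 1.76% were of the first kind. A read was found for 101 of the 126, and for 17137 of all 24421 genes. The 10 transcripts are thus called by their names below, since these defining markers were at or near 0 while other markers ran with the 10.

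Other genes of the lineage moved in part. Of 126 further genes in 7 lists (transcription factors, receptors, signalling, effectors and lysosome, complement, microglia, monocytes and granulocytes), 46 were tested at E9.5 by limma. At an adjusted p below 0.05, KO was higher for 16 and lower for 2 of them. Among all 12000 genes tested, 24.5% were higher and 23% lower. A gene with almost no WT reads enters the test only through its KO values and can then only be called higher. Likewise, a gene with almost no KO reads can only be called lower. With WT1 or WT2 left out, 2 of the 46 were called higher (C3 and Apoe) and 0 lower, so the other calls named below do not hold without either WT library. Over all genes, those fits called 932 higher and 175 lower without WT1, and 740 and 54 without WT2. With KO1 left out, 24 of the 46 were higher and 8 lower (4141 and 4553 over all genes), and with KO2 left out 25 and 5 (3527 and 3653). With no minimum mean, 9 of the 126 were higher and 5 lower (1621 and 1306 over all 24421 genes). Of the genes named below, C3, S100a8, S100a9, Ctsd, Myb and Mertk were then not called, with limma adjusted p-values of 0.067, 0.088, 0.079, 0.12, 0.21 and 0.17. Under RPM scaling, added after the data were seen, 13 were higher and 6 lower, and all genes shifted, from 2944 higher and 2756 lower to 1622 and 5085, with a median of -1.01. At 0 reads in WT and at least 1 in each KO library were 9 of the 126, Ctss, Fcgr3, Msr1, Rac2, Cybb, Lyz1, Ms4a6c, C1ra and Lcn2, and 25 of the 126 had 0 reads in all 4 libraries. Over all genes with a read the first share was 1.76%, and 17137 of all 24421 genes had a read.

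Among the effectors, Ctss, the cathepsin of antigen-presenting cells, had 0 reads in WT1 and WT2, 58 in KO1 and 46 in KO2, and is named after its values were seen. The summed effector list stood at 509 to 569 RPM in WT and 551 to 578 in KO. Of its widely expressed lysosomal genes, Ctsz rose from 637 ± 25.4 to 1311 ± 4.87 (log2 fold change 1.04 ± 0.17 SE, limma adjusted p = 0.0069) and Ctsd from 1059 ± 19.4 to 1624 ± 247 (0.61 ± 0.18, limma adjusted p = 0.041). Under RPM scaling Ctsz was at 0.15 (limma adjusted p = 0.47) and Ctsd turned to -0.28 (adjusted p = 0.15). Cyba, a subunit of the phagocyte oxidase, rose from 226 ± 27.3 to 743 ± 53.2 (1.72 ± 0.22, limma adjusted p = 0.0039). 

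Among 8 tested complement genes other than C1q, 4 were higher in KO and 0 lower. C3, the central component, which the liver makes in bulk, had 0 and 2 reads in WT and 99 and 203 in KO, and rose by a log2 fold change of 7.07 ± 0.93 (SE, limma adjusted p = 0.0040). The granulocyte genes S100a8 (0, 3, 62 and 80 reads) and S100a9 (0, 1, 44 and 59 reads) also rose, with limma adjusted p-values of 0.0066 and 0.0072. C3, S100a8 and S100a9 had WT means of 0.505, 0.757 and 0.252. They reached the minimum mean of 10 only through KO, so they could only have been called higher. Lcn2 did not pass the limma test (adjusted p = 0.14) but did in DESeq2 (adjusted p = 0.043), with 0 reads in WT, 360 in KO1 and 1 in KO2. Cd14, which macrophages use to sense endotoxin, had 4, 8, 106 and 0 reads, so its signal too lay in KO1 alone.

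Of 5 tested transcription factor genes, Cebpb rose (47.8 ± 4.04 to 217 ± 44.4, limma adjusted p = 0.0086), Batf3 rose (33.6 ± 1.15 to 186 ± 15.5, adjusted p = 0.0066) and Myb fell (26.5 ± 2.56 to 1.70 ± 2.40, adjusted p = 0.045, but 0.063 in edgeR and 0.078 in DESeq2). Mertk, a receptor for clearing dead cells, fell from 88.4 ± 33.4 to 3.17 ± 4.48 (limma adjusted p = 0.020). Of the 3 microglial genes tested, 0 were called, with Tmem119 at 336 ± 11.8 in WT and 583 ± 226 in KO, Olfml3 at 94.8 ± 10.9 and 57.7 ± 2.51, and Sall1 at 55.1 ± 2.27 and 30.4 ± 2.69. Both KO libraries lay above WT for Tmem119 and below WT for Olfml3 and Sall1. The ligands of the receptors in the set were near the limit of detection: Csf1 stood at 11.6 ± 4.98 and 11.4 ± 13.7, Cx3cl1 at 11.6 ± 5.03 and 9.94 ± 6.84, and Il34 had 0 reads.

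Genes whose level followed the 10 most closely were sought over all 15 libraries. The measure was Pearson's r with the mean log2(RPM + 1) of the 10 genes, each stage centred on its own mean, over 9714 genes with at least 10 RPM in some group. The 8 nearest were Apoa4 (r = 0.968), Kng1 (0.938), Hp (0.918), F2 (0.912), Nudt7 (0.908), Mup8 (0.905), Snap25 (0.905) and Prl (0.904). These are a description, since the libraries share stage, depth and the E9.5 contrast that chose the genes. None of the 8 is a macrophage marker, but the limit of 10 RPM bears on this. Fcer1g, the highest of the 10 in the E9.5 KO group, stood at 5.73 RPM there. Macrophage genes at such levels in every group were therefore not among the 9714. Apoa4, Kng1, Hp, F2 and Mup8 encode plasma or secreted proteins best known from liver, Snap25 encodes a synaptic protein of neurons, and Prl encodes the pituitary hormone prolactin. Hp had 0, 1, 81 and 181 reads and Prl 1, 4, 162 and 190 reads in E9.5 WT1, WT2, KO1 and KO2.

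This led to 2 further lists, chosen after those values were seen. Over 14 genes of the adult liver the E9.5 libraries held 4.79 (WT1), 7.27 (WT2), 353 (KO1) and 751 (KO2) RPM, and reads were found for 9 of the 14 in WT1 and for all 14 in the other 3 libraries. Alb, the serum albumin gene, had 4, 34, 1505 and 2095 reads, and Mup3, which encodes an adult male urinary protein, 1, 11, 374 and 503. Over 7 pituitary hormone genes the sums were 3.70, 2.69, 21.2 and 45.3 RPM, from Prl, Gh and Pomc, while Cga, Lhb, Fshb and Tshb had 0 reads in all 4 libraries. So in both KO libraries the 10 genes stood high together with these lists, and the sums of both lists and of the 10 genes were higher in KO2 than in KO1. Gene by gene that order went beyond counting error only for Ptprc, Aif1 and Csf1r. The measured ratio was below 1 only for C1qc (0.876) and Cx3cr1 (0.897). The KO2 to KO1 ratio was 13.3 for Ptprc, 8.38 for Aif1 and 11.5 for Csf1r, while its interval held 1 for every other gene of the 10. Their part in the result was not tested, nor was whether RNA of another tissue or library had entered these libraries.

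The summed list of red cell (erythroid) genes stood at 1.37 and 3.03 RPM in WT, 21019 in KO1 and 20.6 in KO2. It was thus above WT in both KO libraries, as the 10 genes were, and 5 of its genes had both KO libraries above WT and 0 below. Its order between the KO libraries was the opposite of that of the sum over the 10 genes, which was 18.4 RPM in KO1 and 29.4 in KO2. The part of the erythroid list in the result was not tested. The endothelial list stood at 42.2 to 48.5 RPM in WT and 70.9 to 92.6 in KO. The neural crest list stood at 744 to 767 RPM in WT and 198 to 299 in KO, with all 12 genes read in every library. Under RPM scaling the median log2 fold change of all 12000 genes tested was -1.01, so a fall in RPM is not particular to these lists. As normalised counts the median of the 12 crest genes was -0.42, with 3 called lower by limma and 0 higher. Of all genes tested, 23% were lower and 24.5% higher. With no minimum mean, 1 crest gene was called lower. Sox10 itself, the gene behind the sort, stood at 97.7 (WT1), 85.3 (WT2), 39.2 (KO1) and 79.6 (KO2) RPM, lower in both KO libraries. As normalised counts its groups overlapped, at 681 ± 58.4 in WT and 838 ± 462 in KO, since 1 read is worth another amount on that scale in each library. Of 10 mast cell genes, which would share Fcer1g with macrophages, only Kit, Gata2 and Cpa3 (1 read, in KO2) had a read. That list ran the other way, at 22.6 and 21.9 RPM in WT and 4.94 and 0.465 in KO, and Kit fell from 139 ± 0.398 to 18.6 ± 21.5 (limma adjusted p = 0.041), a call lost without either WT library, with no minimum mean and in edgeR on the same genes. The lymphocyte and natural killer list stood at 0.274 to 0.875 RPM in WT and 1.13 to 4.30 in KO. The plot of summed lists shows the 10 genes beside 4 of these lists.

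**Figure D4:**
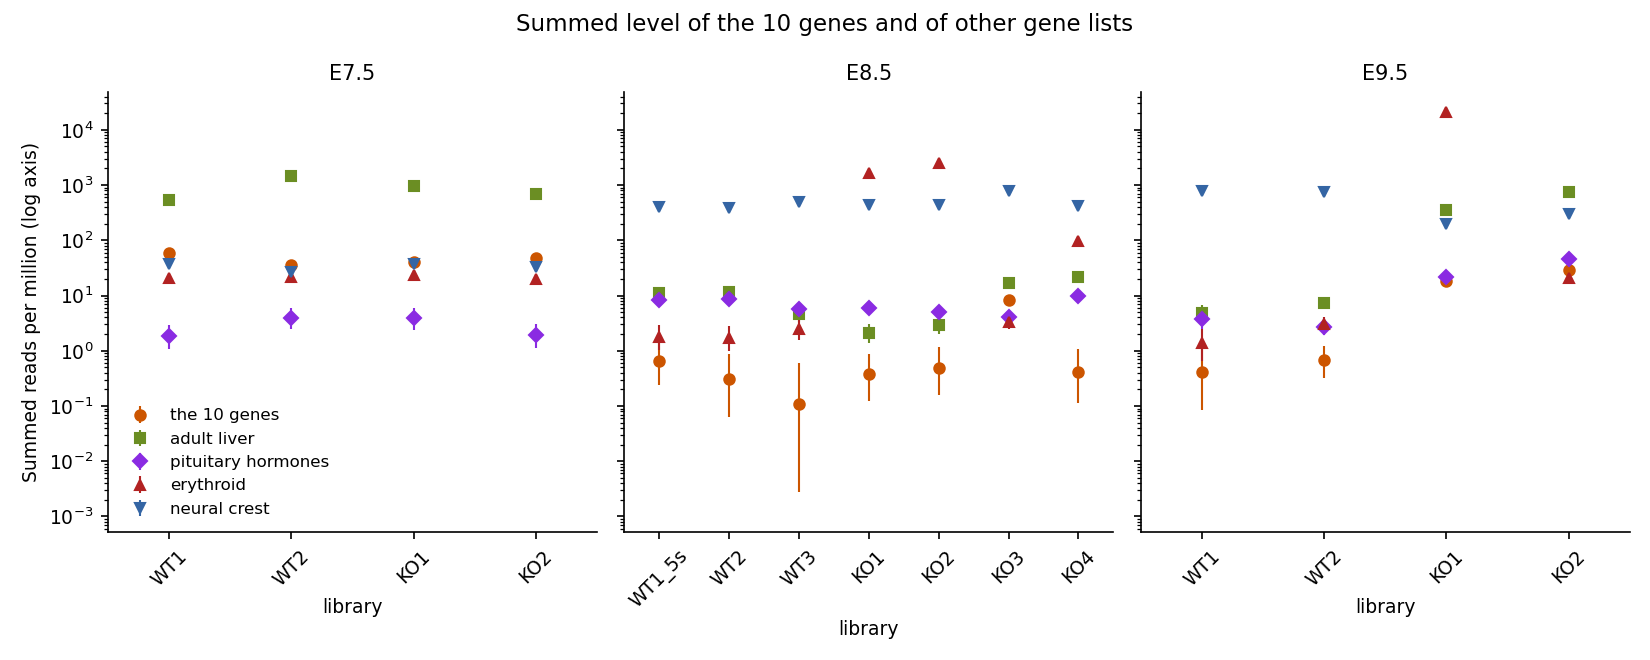
Summed RPM (log axis) of the 10 genes and of 4 other gene lists in every library, with exact 95% Poisson intervals, which are often smaller than the symbols. At E9.5 the adult liver list rises with the 10 genes from WT (4.79 and 7.27) to both KO libraries (353 and 751), while the erythroid list rises from 1.37 and 3.03 to 20.6 in KO2 and 21019 in KO1.

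The promoters were searched for 2 short motifs bound by factors of the myeloid lineage, GAGGAAG for PU.1 and TGTGGT for RUNX proteins, on both strands, in RefSeq windows (GRCm38.p6) from 250 bases before to 50 after each start. The 2 motifs share no overlap in these windows. Windows were found for 7 of the 10 genes, and none for C1qa, Tyrobp and Csf1r. GAGGAAG was in 1 gene, C1qc (first base at -194, minus strand), and in 13.6% of all 32851 windows. TGTGGT was in 4 of the 7 genes, C1qc (-132, plus strand), Lyz2 (-66, minus strand), Cx3cr1 (-54, minus strand) and Fcer1g (9 after the start, plus strand), and in 16.8% of all windows. The 3 windows with a match before the start are shown, without the transcribed bases, with matches in capitals.

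C1qc, chr4:136892915-136893164, minus strand: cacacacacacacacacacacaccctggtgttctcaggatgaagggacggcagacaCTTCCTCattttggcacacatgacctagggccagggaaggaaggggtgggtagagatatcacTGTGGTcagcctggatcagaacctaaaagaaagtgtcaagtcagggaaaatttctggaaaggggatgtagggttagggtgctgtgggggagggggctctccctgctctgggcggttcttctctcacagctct

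Lyz2, chr10:117282273-117282522, minus strand: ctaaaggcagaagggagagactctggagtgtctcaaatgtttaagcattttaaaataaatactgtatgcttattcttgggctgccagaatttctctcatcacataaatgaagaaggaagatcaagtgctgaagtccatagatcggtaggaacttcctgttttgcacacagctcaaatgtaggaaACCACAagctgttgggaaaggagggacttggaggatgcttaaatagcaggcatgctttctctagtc

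Cx3cr1, chr9:120068297-120068546, minus strand: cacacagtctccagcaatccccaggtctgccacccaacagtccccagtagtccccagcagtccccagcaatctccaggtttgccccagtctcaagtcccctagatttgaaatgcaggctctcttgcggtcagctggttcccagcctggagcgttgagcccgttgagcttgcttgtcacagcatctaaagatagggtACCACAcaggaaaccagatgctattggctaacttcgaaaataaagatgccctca

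Capitals in Lyz2 and Cx3cr1 read ACCACA, the reverse complement of TGTGGT. A match is a description of letters only.

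In Wnt1-Cre-positive cells at E8.5 the same transcripts were near or at 0 in both genotypes. Ptprc and Aif1 had 0 reads in all 7 libraries, a count that allows up to 3 reads or 0.222 to 0.333 RPM per library. Lyz2 had 0 reads in each of the 3 WT libraries and 0, 1, 86 and 2 in KO1, KO2, KO3 and KO4, so 1 library carried nearly all of it, at a normalised count of 51.7. Tyrobp had 6 reads in KO3 and 0 elsewhere. C1qa had 3 reads in KO3 and 1 in WT1_5s, C1qb 5 in KO3 and 2 in WT2, and C1qc 4 in KO3 and 0 to 2 in the others. Fcer1g had 3, 0 and 0 reads in WT and 4, 2, 4 and 0 in KO, Csf1r at most 2 in any library and Cx3cr1 at most 1.

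None of the 10 reached the minimum mean of 10 at E8.5, so the limma fit gave no value for them. That fit called 0% of 12257 genes (742 had an unadjusted p below 0.05, edgeR called 0 and DESeq2 28). When edgeR and DESeq2 were run on every gene with a read, added after the data were seen, 8 of the 10 were tested and 0 were called by either. In 0 of the 10 did KO and WT separate, where 3.13% of genes with a read stood above WT in every KO library and 2.56% below. Without KO1, Lyz2 separated, at 1.04 to 51.7 in KO against 0 in WT, and the share over all genes without KO1 is not given here. Their table of higher genes at this stage (539 genes) and that of lower genes (437) hold 0 of the 10, in the authors' deposited tables. These are small lists beside the 18267 genes with a read, so nothing is read from the 0.

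KO3 was also the library with the most neural crest signal at E8.5, at 779 RPM against 389 to 491 in WT. It held 8.14 RPM over the 10 genes, against 0.108 to 0.666 in the other 6 libraries. Its erythroid list stood at 3.33 RPM, while KO1 and KO2 held 1651 and 2521 with 0.382 and 0.497 RPM of the 10 genes. Its adult liver list stood at 17.2 RPM, 122 of its 232 reads from Ttr, and KO4 held 22.0 with 0.418 RPM of the 10 genes. Its monocyte and granulocyte list, at 2.37 RPM, lay within the WT range of 1.51 to 7.29. The part of these in the KO3 values was not tested.

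Whole embryos at E7.5 were not sorted, and both genotypes held reads of all 10 transcripts. The summed level was 59.2 (WT1), 35.1 (WT2), 40.7 (KO1) and 48.6 (KO2) RPM, so the genotypes overlapped. Lyz2 led at 193 and 191 in WT and 121 and 189 in KO. Csf1r stood at 72.4 and 16.3 in WT and 89.1 and 68.1 in KO, with WT2 low and the other 3 libraries alike. Fcer1g stood at 27.4 and 18.8 in WT and 12.5 and 25.6 in KO, and the groups overlapped.

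Tyrobp was the 1 gene of the 10 with both KO libraries above both WT libraries at E7.5, at 16.2 and 16.3 in WT and 25.0 and 31.3 in KO. Of all genes with a read, 13.6% separated in that direction. Lyz2 and Cx3cr1 (5.62 and 3.77 in WT, 2.78 and 0.801 in KO) were lower in both KO libraries, as were 13.8% of genes with a read. Cx3cr1 rests on 11 WT and 3 KO reads. For Lyz2 the separation depends on the scale: in RPM it stood at 29.8 and 25.8 in WT and 17.7 and 26.8 in KO, which overlap. The remaining genes overlapped: Ptprc stood at 21.8, 8.79, 8.35 and 10.4 in WT1, WT2, KO1 and KO2, C1qb at 18.3, 2.51, 13.9 and 2.40, C1qc at 21.1, 0, 5.57 and 8.01, C1qa at 5.62, 0, 0 and 5.61, and Aif1 at 1.41, 2.51, 0 and 1.60.

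The limma fit at E7.5 called 0% of 12492 genes (385 had an unadjusted p below 0.05, edgeR called 0 and DESeq2 31). It tested 5 of the 10. Their log2 fold changes were -0.34 ± 0.35 (SE) for Lyz2, 0.75 ± 0.56 for Tyrobp, -0.32 ± 0.64 for Fcer1g, -0.53 ± 0.78 for Ptprc and 1.15 ± 0.68 for Csf1r. Each had a limma adjusted p of 0.999961. For Csf1r the value depends on 1 WT library: it was 2.19 without WT1 (adjusted p = 0.097) and 0.10 without WT2. Ptprc was at 0.08 without WT1, and Fcer1g at 0.17 without KO1. Lyz2 moved to -0.02 without KO1 and to -0.66 without KO2. Run on all 18327 genes with a read, edgeR called 190 and DESeq2 27, and 0 of the 10 were among them.

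WT1 at E7.5 had the highest Ptprc, C1qb and C1qc. It was also the library with the highest decidua and uterus list, 2408 RPM, against 294 in WT2, 984 in KO1 and 1011 in KO2, and with the highest complement list other than C1q, 174 RPM against 51.5 to 72.9. Trem2 had 40 reads there, and 0, 1 and 6 in WT2, KO1 and KO2. Without WT1, 3 genes stood above WT in both KO libraries (Tyrobp, C1qc and Csf1r) and 3 below (Lyz2, Aif1 and Cx3cr1). Without WT2, 1 stood above and 7 below. Genes separate more easily with fewer libraries, and the shares over all genes without WT1 or WT2 are not given here. Nothing is read from these counts. The part of the decidua list in these values was not tested.

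Of the defining markers, Spi1 had 6, 1, 2 and 12 reads in WT1, WT2, KO1 and KO2 of the whole embryos and Itgam 9, 1, 3 and 6, while Adgre1, at 0, 0, 1 and 2, was near 0 here too. Lyz1 was read 14, 125, 1 and 8 times, so WT2 stood apart for this neighbour of Lyz2. Per length, the E9.5 KO libraries held more Fcer1g (7.71 and 9.36 RPKM) than any E7.5 library (2.68 to 6.22), and less Lyz2 (3.14 and 3.36 against 13.5 to 22.7). Csf1r was lower at E9.5 as well, at 0.0172 and 0.198 against 0.469 to 2.77. The stages were normalised separately and differ in the cells taken, and these levels across stages were not tested.

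Over the 15 libraries each gene was also set against the mean of the other 9, again centred by stage. Pearson's r was highest for C1qa (0.910), Fcer1g (0.894) and C1qc (0.890), and lowest for Csf1r (0.491) and Lyz2 (0.681). These are descriptions over libraries that share the contrast by which the genes were chosen. At the E9.5 threshold of a mean of 10, over which 7 of the 10 were tested, the genes just inside were C1qa at 11.4 and Tyrobp at 14.2, and those outside were C1qb at 9.12, Cx3cr1 at 4.24 and Csf1r at 3.66.

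Depths ran from 7300598 to 14861728 reads at E9.5, 9008784 to 13517860 at E8.5 and 4912827 to 9184436 at E7.5, so that 1 read was worth 0.0673 to 0.204 RPM. Between replicates the chi-square per gene was 9.26 to 106, beyond counting noise. Reads without molecular identifiers are not independent molecules, and intervals and limits from counts cover counting error only.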

How the data were processed

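Per the labels' protocols, RNA was extracted with miRNeasy and Trizol-LS, cDNA was made with SMART-Seq v4 and libraries with Nextera XT. FastQC 0.11.5, STAR 2.7.0f and the mm10 genome are named in the submitters' processing notes. Which read counter and annotation were used is not given in the sources used here. For each stage the authors deposited normalised signal per gene (gene counts over 1 factor per library), and lists of selected genes with log2 fold change, a test score and p-values, per the file headers.

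Low values were whole multiples of 1 read in every library (100% of values within 0.01 of a whole read), which gave back reads and depths. KO was compared with WT, per stage, by limma 3.58.1 (R 4.3.3; trended, two-sided) on log2(value + 1) of genes with a mean of at least 10, with Benjamini-Hochberg adjustment over all genes at 0.05. EdgeR 4.0.16 and DESeq2 1.42.0 on whole reads were alternatives, as were other pseudocounts, filters and scalings, a replicate block and leaving out each library. Simulated data with known changes were used to test the fit. The changes were put only in well-read genes, so low counts like those of the 10 genes at E9.5 were not covered. A fold against 0 uses 3 reads over the group and the measured KO level, without the counting error of the KO reads. Positions and lengths are from GENCODE (GRCm38). The 10 genes and the 15 other lists were chosen with earlier results of these data known. Named are the 10 genes, up to 4 genes with the highest mean per list and the 8 nearest in level; 1 of the list genes is not reported here. Other named genes were chosen after their values were seen. The E7.5 list of higher genes was not used here, since its means differ from the E7.5 table.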

Additional observations from a re-analysis of the deposited data

Results flagged for a closer look

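In the E8.5 KO group of 4 libraries, KO3 stood apart from the other 3 for 4 of the 10 genes, its gap to the nearest library taking up more of the group's range than Dixon's 95% limit allows. Its normalised counts were 51.7 for Lyz2, 1.80 for C1qa, 3.01 for C1qb and 3.61 for Tyrobp. Chance alone flags about 1 in 20 groups of continuous values. For C1qa, C1qb and Tyrobp, with 3, 5 and 6 reads in KO3, the other 3 libraries were at 0, so any read would have met the limit and the flag says nothing beyond the counts. The counts at E8.5 are low throughout, and the part of any difference in the cells sorted was not tested.

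For Lyz2 and Cx3cr1 the genotype difference ran in opposite directions at E9.5 and E7.5 as normalised counts: higher in both KO libraries at E9.5 and lower in both at E7.5. In RPM this does not hold for Lyz2, which stood at 26.8 in E7.5 KO2 and 25.8 in WT2. The differences of the log2 differences were 6.25 for Lyz2 and 4.35 for Cx3cr1. These differences between stages were not tested, the E9.5 values are those by which the genes were chosen, and their size is set by the pseudocount, since WT had 0 reads: with pseudocounts of 8 and 0.1 the E9.5 difference alone was 3.07 and 9.21 for Lyz2 and 1.04 and 6.42 for Cx3cr1.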

How the results depend on the processing

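All 10 genes stood above WT in both KO libraries at E9.5 under TMM, quantile and RPM scaling and without each library in turn. The count tests, a replicate block and a minimum mean of 100 give no such count. Leaving out a library cannot undo a separation, and scaling by 1 factor per library keeps 0 reads at 0. For the 9 genes with 0 reads in WT those outcomes were thus fixed in advance. The shares over all genes under these settings are not given here, and nothing is read from them. The median log2 difference of the 10 was 4.30, and 1.95 with a pseudocount of 8, 7.53 with 0.1, 7.73 in edgeR and 7.59 in DESeq2, since 9 genes have 0 reads in WT. It ranged from 3.79 to 4.96 without single libraries. The genes called at E9.5 numbered 5700, 2927 with no minimum mean, 5722 with a replicate block, and 794 to 8694 without single libraries. At E8.5 the count was 0, and 5 with no minimum mean, 28 in DESeq2, 1 with a replicate block and 0 to 3 without single libraries. At E7.5 it was 0, and 31 in DESeq2, 47 with a replicate block, 18 in the libraries whose code begins with 239 alone and 0 to 39 without single libraries. None of the 10 was called at E8.5 or E7.5 under an alternative that tested it. Fcer1g at E7.5 ranged from -0.81 to 0.17 and Ptprc from -1.14 to 0.077 without single libraries, and Ctsd at E9.5 turned to -0.28 under RPM scaling. The cause of these shifts was not tested. Same-numbered libraries did not deviate together at E9.5 (r = -0.17) or E7.5 (-0.12), and at E8.5 r was -0.02 for number 2 and 0.55 for number 3. A library left alone in its group was assumed to vary like the other group. At E8.5 every count of the 10 genes other than Lyz2 in KO3 was at most 6 reads, and differences between such counts were not tested against counting error.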
